A study of Mus musculus with 8 samples.

Results

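The replication-dependent histone genes were examined in mouse haematopoietic stem and progenitor cells that had been transduced with a KLF7 lentivirus or a control virus. KLF7 belongs to the Krüppel-like family of DNA-binding proteins. A gene was taken as a member when its platform annotation gave a single symbol with a histone prefix (H1f, H2ac, H2bc, H3c or H4c) and a number. The rule found 30 of 19938 genes with a single symbol: 8 of class H1, 4 of H2A, 9 of H2B, 3 of H3 and 6 of H4. Older names in RefSeq's synonyms placed 23 of them in the histone gene cluster 1 (Hist1), 4 in cluster 2 (Hist2) and 3 in neither. The rule also took in 6 genes that are not replication-dependent histones of body cells: the testis genes H1f6, H1f7, H2ac1 and H2bc1, the oocyte gene H1f8, and H1f10, which is made throughout the cell cycle. The other 24 members are replication-dependent by name.

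The KLF7 group held 4 arrays of cells that received the KLF7 lentivirus, and the control group 4 arrays of cells that received the control virus. Both came from the bone marrow of C57Bl/6 mice, where c-Kit-positive cells were transduced, and 72 hours later cells without lineage markers but with c-Kit and Sca-1 were sorted and their RNA was amplified. The labels give neither the age or sex of the mice nor the vectors' promoters, nor whether arrays came from separate animals or cultures. P-values therefore measure how far these arrays spread, technical differences included, and the number of arrays limits the precision. Each value below is the log2 of an RMA intensity, written as log2 intensity, and each difference is the KLF7 mean minus the control mean on that scale.

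Histones are the proteins around which DNA is wound. H3 and H4 form the inner core, H2A and H2B flank it, and H1 binds the linker DNA between cores. The replication-dependent genes lie in clusters, have no introns and are transcribed mainly in S phase, when new DNA must be packed. Their messages end in a stem-loop bound by the stem-loop binding protein instead of a poly(A) tail, and some of these genes also give polyadenylated messages in differentiated cells, as described in human cells. The labels name the amplification kit but not how the RNA was primed, so the share of tailed and tailless messages behind an intensity is not known.

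The promoters of the genes that the results turn on are printed first, from RefSeq, build GRCm38.p6, as the 250 bases before the annotated start, 5′ to 3′ on the gene's strand. Of the 30 members, 26 have an entry there. Capitals mark matches, on either strand, to the TATA box TATAAA, the CCAAT box CCAAT, the octamer ATTTGCAT, the H1 box AAACACA and the CACCC box CACCC, a core of sites bound by KLF factors. H1f2 (chr13:23738557-23738806, plus strand) and H2bc8 (chr13:23571150-23571399, plus strand) are shown because they stood among the highest differences. H1f5 (chr13:21780626-21780875, minus strand), H2bc14 (chr13:21721794-21722043, plus strand) and H4c4 (chr13:23581318-23581567, plus strand) are shown as genes of the same classes, or of H4, with differences near 0, and H4c8 (chr13:23530794-23531043, plus strand) as the gene with the lowest difference.
H1f2: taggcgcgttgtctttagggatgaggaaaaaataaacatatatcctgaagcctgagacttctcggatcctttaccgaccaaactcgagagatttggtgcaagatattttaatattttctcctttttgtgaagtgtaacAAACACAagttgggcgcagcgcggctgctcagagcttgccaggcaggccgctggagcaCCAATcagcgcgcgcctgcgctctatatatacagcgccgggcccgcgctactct
H1f5: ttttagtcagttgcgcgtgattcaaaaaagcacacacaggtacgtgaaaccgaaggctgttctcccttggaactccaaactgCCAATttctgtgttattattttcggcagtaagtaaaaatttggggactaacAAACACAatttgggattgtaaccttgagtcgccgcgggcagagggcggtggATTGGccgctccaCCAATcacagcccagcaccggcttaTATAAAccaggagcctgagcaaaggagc
H2bc8: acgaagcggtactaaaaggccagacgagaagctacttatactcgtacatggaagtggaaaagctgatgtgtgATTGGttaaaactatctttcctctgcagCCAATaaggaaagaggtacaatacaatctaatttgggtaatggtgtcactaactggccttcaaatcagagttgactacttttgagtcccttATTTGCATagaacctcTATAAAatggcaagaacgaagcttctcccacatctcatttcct
H2bc14: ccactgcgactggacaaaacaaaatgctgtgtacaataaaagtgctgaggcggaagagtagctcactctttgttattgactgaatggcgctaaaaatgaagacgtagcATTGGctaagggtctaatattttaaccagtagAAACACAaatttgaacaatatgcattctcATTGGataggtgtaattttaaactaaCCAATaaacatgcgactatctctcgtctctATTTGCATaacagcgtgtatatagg
H4c4: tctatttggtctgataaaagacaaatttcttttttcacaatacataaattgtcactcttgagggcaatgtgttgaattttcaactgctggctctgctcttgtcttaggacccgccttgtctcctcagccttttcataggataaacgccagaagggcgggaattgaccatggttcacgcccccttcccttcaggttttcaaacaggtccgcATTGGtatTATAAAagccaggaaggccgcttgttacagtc
H4c8: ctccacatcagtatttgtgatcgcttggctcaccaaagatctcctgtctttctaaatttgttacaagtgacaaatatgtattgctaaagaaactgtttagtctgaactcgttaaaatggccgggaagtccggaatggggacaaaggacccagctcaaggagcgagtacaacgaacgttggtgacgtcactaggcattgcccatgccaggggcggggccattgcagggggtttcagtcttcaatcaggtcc

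The octamer, a site of POU-domain factors long known from H2B promoters, was found in 8 of the 26 member promoters, 5 of 7 H2B and 3 of 4 H2A, and in 0 of the 15 others. Of all 32851 promoters in the table, 1.60% hold it. H2bc8 and H2ac8 lie back to back, as do H2bc1 and H2ac1. Their windows share 179 and 220 bases, and each pair holds 1 octamer in common, so the 8 promoters hold 6 distinct octamers. The CCAAT box was in 20 of 26 member promoters, against 33.9% of all promoters, and the TATA box in 14 of 26, against 12.4%. The H1 box, searched after the sequences had been read, was in 8 of 26 member promoters (4 of 8 H1, 2 of 4 H2A and 2 of 7 H2B), against 6.25% of all promoters. The CACCC box was in 6 of 26 member promoters, against 52.0% of all promoters, and in none of the 6 printed here. These matches are descriptions of letters in a window, and CACCC was the only form of KLF site searched.

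The transduced gene, Klf7, was measured at 11.43, 10.19, 11.05 and 10.52 log2 intensity on the KLF7 arrays 1 to 4, against 8.53, 10.28, 9.35 and 7.98 on the control arrays 1 to 4. The mean difference was 1.76 (SE 0.46), which did not pass in limma (Benjamini-Hochberg adjusted p = 0.327), and an exact two-sided permutation test over the arrays gave p = 0.0571, where the smallest p that 4 against 4 arrays allow is 0.0286. Control 2 lay above KLF7 2, so the groups overlapped, and groups are named here by their labels. The arrays numbered 4 stood apart in both groups: the mean log2 intensity of 4 mast cell genes was 6.86 and 6.53 there (KLF7 4 and control 4), against 9.79 to 10.86 on the other KLF7 arrays and 9.26 to 10.37 on the other control arrays. Of 10 measured stem and progenitor markers, 7 had a higher mean with KLF7 and 0 passed the test. Hlf (-0.90, SE 0.23, 1.87-fold) and Myb (-0.91, SE 0.24, 1.88-fold), transcription factor genes of these cells named after their values were seen, lay lower on every KLF7 array than on every control array. In all, 475 of 19938 genes did so. Kit, used in the sort, lay between 7.85 and 10.52 on the KLF7 arrays and between 8.33 and 9.85 on the control arrays. The lowest Kit value in each group was on the array numbered 4. The other KLF7 arrays lay at 9.96 to 10.52 and the other control arrays at 9.57 to 9.85. Ly6a, which encodes Sca-1, was not analysed here. The B cell list and the T and NK cell list stayed at low mean levels of 4.08 to 4.52 and 4.57 to 5.12 on the KLF7 arrays, and of 4.24 to 4.41 and 4.84 to 4.86 on the control arrays.

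The first question is whether histone messages as a whole differed between KLF7 and control cells, and the differences of the bulk signal lay within the spread of the arrays. Histone genes of a class are close to identical, and 26 further probe sets carry several histone symbols: 2 read H2A genes, 7 H2B, 10 H3, 6 H4 and 1 an H1 and an H2B gene together. No gene can be named from them, so they are no members. Those of a single class carry 11 to 20 symbols, except 1 H4 probe set with 2. The probe sets of a class may share probes and are not independent of each other.

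The shared H3 probe sets had mean log2 intensities of 10.92, 11.63, 12.04 and 11.88 on the KLF7 arrays 1 to 4, against 11.58, 11.85, 11.78 and 11.71 on the control arrays. The shared H4 probe sets lay at 10.20, 10.71, 11.29 and 11.001 on the KLF7 arrays, against 10.80, 10.88, 10.82 and 10.70 on the control arrays. In both classes KLF7 1 was the lowest and KLF7 3 the highest of all arrays, with the control arrays between them. The difference was -0.11 for H3 (11.62 ± 0.49 against 11.73 ± 0.12, SD, n = 4 each) and 0.00088 for H4 (10.80 ± 0.47 against 10.80 ± 0.08, SD, n = 4 each), within the spread of the KLF7 arrays. The H4 probe set with 2 symbols was dim and stood at 0.21, while the other 5 lay between -0.05 and -0.03, and without it the H4 difference was -0.04. The 2 inner core classes thus had like means in the groups, and spread over more than 1 log2 unit within the KLF7 group.

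The shared H2B probe sets lay at 11.31, 11.55, 11.97 and 11.93 on the KLF7 arrays, against 11.56, 11.74, 11.44 and 11.75 on the control arrays (difference 0.07). The shared H2A probe sets lay at 10.63, 11.32, 11.61 and 11.53 on the KLF7 arrays, against 11.14, 11.46, 11.07 and 11.39 on the control arrays (difference 0.0030). The groups overlapped in every class. KLF7 1 was the lowest of the 8 arrays for all 25 probe sets that read 1 class, and lay below the mean of the other KLF7 arrays by between -0.51 (H2B) and -0.93 (H3). Without KLF7 1 the differences were 0.22 for H2A, 0.19 for H2B, 0.12 for H3 and 0.20 for H4, all above 0. Without KLF7 3 they were -0.11 for H2A, -0.03 for H2B, -0.25 for H3 and -0.16 for H4, all below 0. In these bulk samples, fewer cells in S phase and less histone message per cell cannot be told apart.

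**Figure D1:**
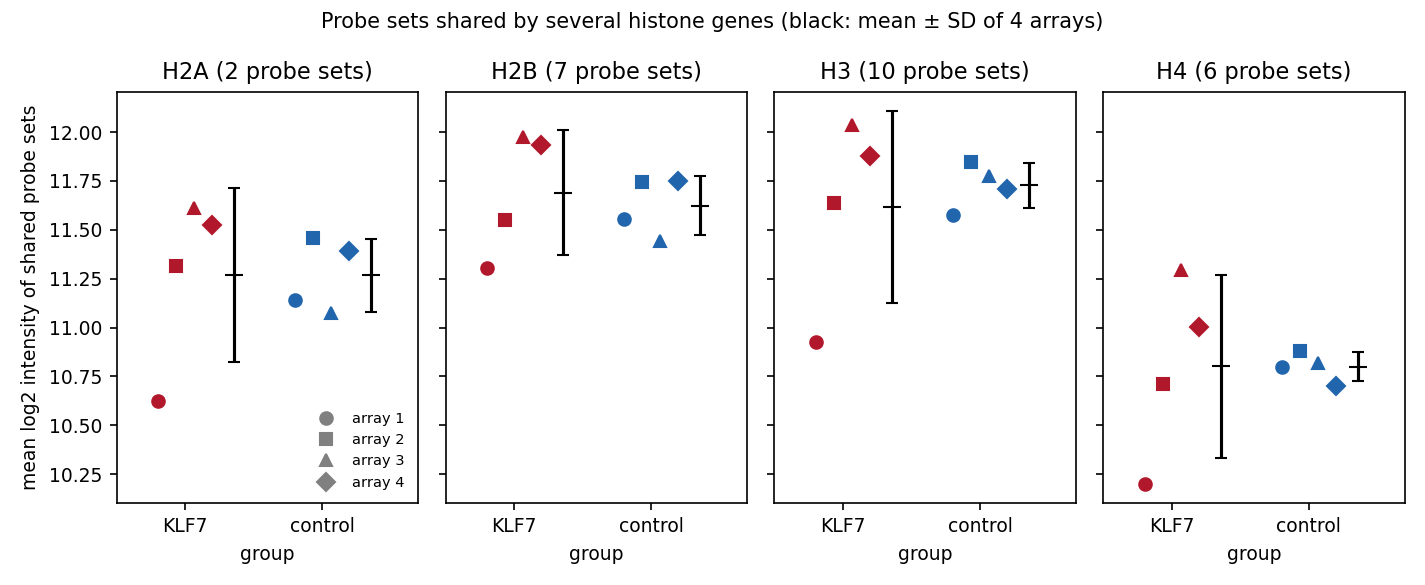
Mean log2 intensity (y axis) of the probe sets shared by several genes of a histone class, by group (x axis), with a marker shape for each array number and the mean ± SD of 4 arrays in black. KLF7 1 (circle) lies lowest of the 8 arrays in each panel, at 10.20 for H4 against 10.70 to 10.88 on the control arrays.

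The 30 members were then read from their own probe sets, 1 for each gene. In limma with Benjamini-Hochberg adjustment over all 19938 genes, 0 of 30 members had an adjusted p under 0.05, where 0% of all genes did, and the smallest among the members was 0.63. At an unadjusted p under 0.05 there was also no member, against 8.21% of all genes, and for no member did the groups fail to overlap, against 5.22% of all genes in either direction and 2.83% with KLF7 higher. The count at an unadjusted p under 0.05 varied between 0 and 3 over the alternative fits. It was 1 with a batch term for both arrays numbered 4 (H1f2) and 3 with array weights (H1f2, H2bc4 and H2bc21). It was also 3 without KLF7 4, and 2 without KLF7 1, KLF7 3, control 2 or both arrays numbered 2. No member passed the adjusted threshold in these fits. The 8.21% belongs to the main fit, and the share of all genes in the other fits is not given here. A higher mean on the KLF7 arrays was seen for 22 members and a lower one for 8, where 50.4% of all genes had a higher and 49.6% a lower mean. A mean at least 1.5-fold higher was seen for 3 members (H2bc4, H1f2 and H2bc8), against 3.21% of all genes, and one at least 1.5-fold lower for 0, against 1.92%. The median difference was 0.12 over the members and 0.0019 over all genes. It depended on KLF7 1, 3 and 4 and on controls 1, 3 and 4: without KLF7 1 it was 0.26, without KLF7 3 it was 0.04, without KLF7 4 it was 0.03, and without control 1, 3 or 4 it was 0.06, 0.05 and 0.19. Without both arrays numbered 4 it was 0.07 and without both numbered 2 it was 0.19. Over the 24 members that are replication-dependent by name the median was 0.14, with 20 higher and 4 lower.

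**Figure D2:**
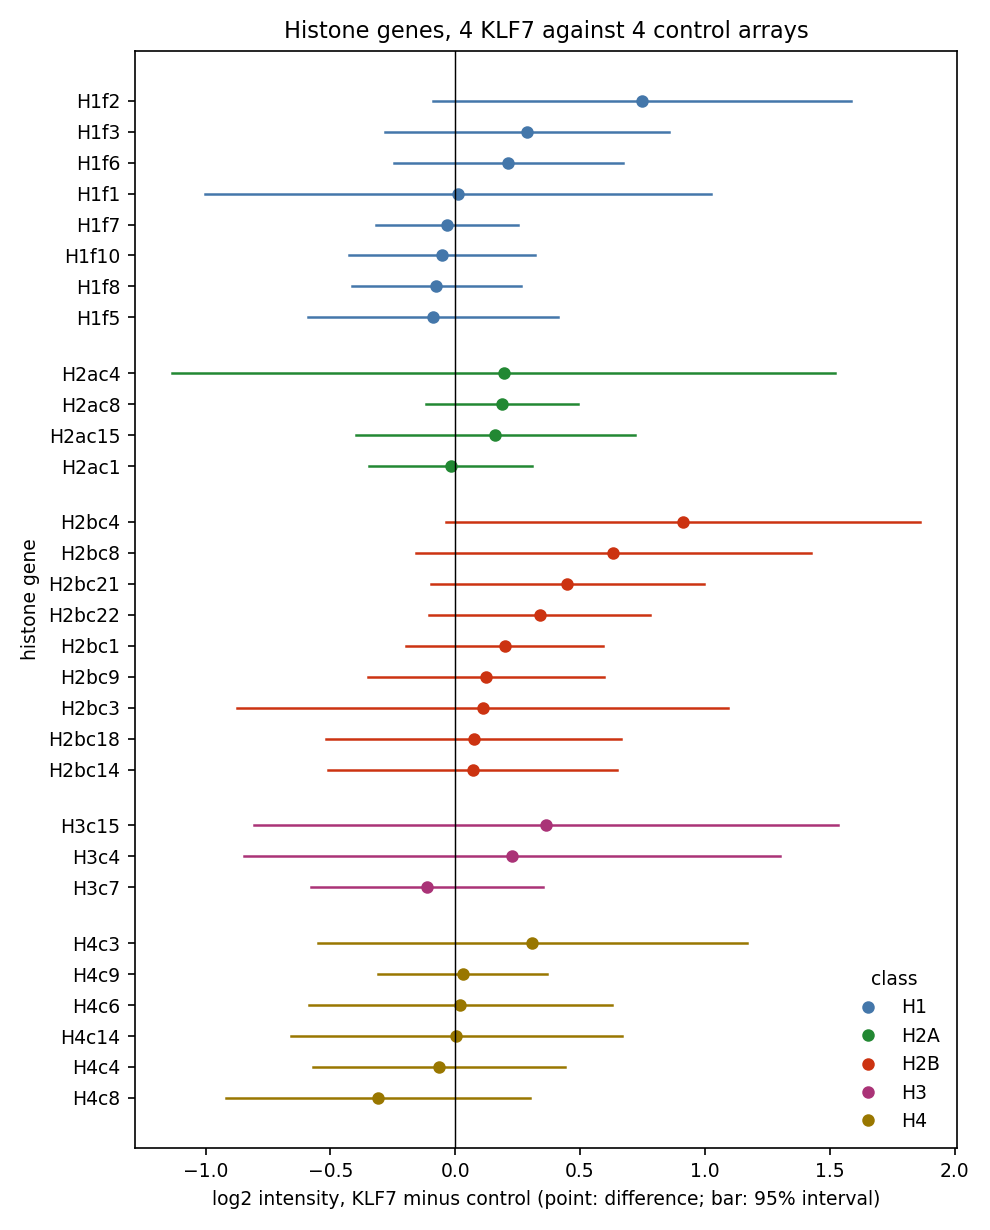
Difference in log2 intensity between KLF7 and control (x axis) for the 30 histone genes (y axis, grouped and coloured by class), with the 95% interval of limma's fit. Every interval includes 0, and H2bc4, H1f2, H2bc8 and H2bc21 have the highest differences, from 0.45 to 0.91.

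H2B was the class in which every member had a higher mean with KLF7: 9 of 9, with a median difference of 0.20, from 0.07 (H2bc14) to 0.91 (H2bc4). Leaving out KLF7 1 gave a class median of 0.35. Leaving out KLF7 4 gave 0.11 and a count of 7 of 9, with H2bc14 at -0.08 and H2bc3 at -0.31. The count was also 7 of 9 without KLF7 3, without control 3 and without both arrays numbered 4. It was 8 of 9 without control 1, without control 2 and with quantile normalization applied again. H2bc4 had 9.89, 9.59, 7.87 and 9.04 log2 intensity on the KLF7 arrays 1 to 4, against 7.63, 8.83, 7.76 and 8.50 on the control arrays 1 to 4. Of the KLF7 arrays, 3 lay above all controls and KLF7 3 among the lowest. The difference of 0.91 (SE 0.43, 1.88-fold, 95% interval -0.04 to 1.86) did not pass the test (limma, Benjamini-Hochberg adjusted p = 0.63). It was 1.32 without KLF7 3 and 0.65 without KLF7 1.

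H2bc8, the gene that shares its promoter stretch with H2ac8, had 10.70, 9.48, 9.78 and 9.18 log2 intensity on the KLF7 arrays, against 9.04, 9.91, 9.07 and 8.58 on the control arrays. Control 2 lay above 3 of the 4 KLF7 arrays. The difference was 0.63 (SE 0.36, 1.55-fold, limma adjusted p = 0.723), 0.33 without KLF7 1 and 0.99 without both arrays numbered 2. H2bc21, an H2B gene of cluster 2, had 7.83, 7.94, 6.96 and 7.45 on the KLF7 arrays, against 7.02, 6.69, 7.38 and 7.30 on the control arrays. KLF7 3 was again within the controls while the other 3 KLF7 arrays lay above them. Its difference was 0.45 (SE 0.25, 1.36-fold, limma adjusted p = 0.708), and 0.18 without both arrays numbered 2.

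The remaining 6 H2B members differed by less. H2bc22 stood at 0.34 (SE 0.20) and the testis gene H2bc1 at 0.20 (SE 0.18), both dim. H2bc9 was at 0.12 (SE 0.21), H2bc3 at 0.11 (SE 0.44), H2bc18 at 0.07 (SE 0.27) and H2bc14 at 0.07 (SE 0.26). H2bc14, whose promoter is printed above, had 10.04, 10.58, 11.10 and 11.18 log2 intensity on the KLF7 arrays, against 10.62, 10.89, 10.35 and 10.75 on the control arrays. KLF7 1 was the lowest and KLF7 4 the highest array, the reverse of H2bc8, where KLF7 1 was the highest. The sign for H2bc14 and H2bc3 turned without both arrays numbered 4 (-0.05 and -0.15), and that for H2bc14 also when quantile normalization was applied again (-0.11).

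In the H1 class 4 members had a higher and 4 a lower mean, with a median of -0.01, and 0.15 without KLF7 1. H1f2 (H1.2), a linker histone of body cells, had 9.94, 9.77, 9.37 and 8.62 log2 intensity on the KLF7 arrays, against 9.03, 8.64, 9.33 and 7.71 on the control arrays. KLF7 1, 2 and 3 lay above all controls, and the groups overlapped through KLF7 4. The difference of 0.75 (SE 0.38, 1.68-fold, 95% interval -0.09 to 1.59) did not pass (limma, adjusted p = 0.668), and was 0.43 without control 4. H1f3, also a linker histone of dividing cells, was at 0.29 (SE 0.26), 0.03 without KLF7 3 and 0.51 without KLF7 4. It is in the dimmer 50% of genes.

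H1f5 (H1.5) had 8.97, 9.37, 9.92 and 9.47 log2 intensity on the KLF7 arrays, against 9.32, 9.80, 9.37 and 9.59 on the control arrays, a difference of -0.09 (SE 0.23). H1f1 was at 0.01 (SE 0.46), with its highest values on the arrays numbered 4, 9.11 with KLF7 and 9.40 in control, against at most 8.25 and 8.11 on the others. Both differences were smaller than their errors. The germline genes H1f6 (0.21, SE 0.21), H1f7 (-0.03, SE 0.13) and H1f8 (-0.08, SE 0.15) were all in the dimmer 50% of genes, and H1f10 was at -0.05 (SE 0.17). Neither H1f10 (0.01) nor H1f8 (0.0074) kept its sign without both arrays numbered 4.

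Of the 4 H2A members, 3 were higher on average, and the class median was 0.17, but 0.01 without KLF7 4, 0.03 without control 3, 0.11 without control 1 and 0.29 without KLF7 1. H2ac15 had 8.81, 9.35, 9.80 and 9.87 log2 intensity on the KLF7 arrays, against 9.25, 9.40, 9.01 and 9.52 on the control arrays (0.16, SE 0.25). H2ac4 spread most of all members within the KLF7 group, with 6.64, 7.78, 7.64 and 9.76 on the KLF7 arrays, against 7.37, 7.59, 7.12 and 8.95 on the control arrays (0.19, SE 0.60). The array numbered 4 was the highest in both groups for both genes. Without both arrays numbered 4, H2ac4 was at -0.0076. H2ac8, in the dimmer 50% of genes, was at 0.19 (SE 0.14). The testis gene H2ac1 was at -0.02 (SE 0.15), a value whose sign turned with array weights (0.04) and with cyclic loess (0.0029).

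The H4 class had a median of 0.01, with 4 members higher and 2 lower, -0.17 without KLF7 3 and 0.20 without KLF7 1. H4c4 had 11.64, 12.28, 12.78 and 12.47 log2 intensity on the KLF7 arrays, against 12.45, 12.42, 12.39 and 12.17 on the control arrays (-0.07, SE 0.23). H4c8 had 6.34, 6.55, 7.49 and 6.92 on the KLF7 arrays, against 7.57, 7.31, 7.01 and 6.66 on the control arrays, the lowest difference of the 30 (-0.31, SE 0.28, 1.24-fold, limma adjusted p = 0.875). It was -0.15 without KLF7 1 and -0.53 without KLF7 3. KLF7 1 was the lowest array for both genes. H4c3 was at 0.31 (SE 0.39), and H4c9 (0.03, SE 0.15), H4c6 (0.02, SE 0.27) and H4c14 (0.0051, SE 0.30) were near 0. The signs of H4c6 and H4c14 turned with quantile normalization applied again (-0.04 and -0.18).

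The H3 class rests on 3 probe sets, since most H3 genes were read by shared ones, and its median of 0.23 ranged from -0.17 without control 4 to 0.50 without KLF7 4, with -0.07 without KLF7 1. H3c4 had 8.71, 7.96, 8.04 and 6.57 log2 intensity on the KLF7 arrays, against 7.76, 8.35, 7.87 and 6.40 on the control arrays (0.23, SE 0.49). H3c15 had 6.15, 5.10, 6.68 and 5.44 on the KLF7 arrays, against 4.40, 6.87, 6.01 and 4.62 on the control arrays (0.36, SE 0.53). The H3c15 difference was 0.0066 without control 1, 0.83 without control 2 and 1.08 without both arrays numbered 2. Neither pattern followed the shared H3 probe sets, and H3c15 is in the dimmer 50% of genes. H3c7, at 2.31 to 3.18 on the KLF7 arrays and 2.38 to 3.21 on the control arrays, lay near the lowest intensity of the arrays (-0.11, SE 0.21).

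**Figure D3:**
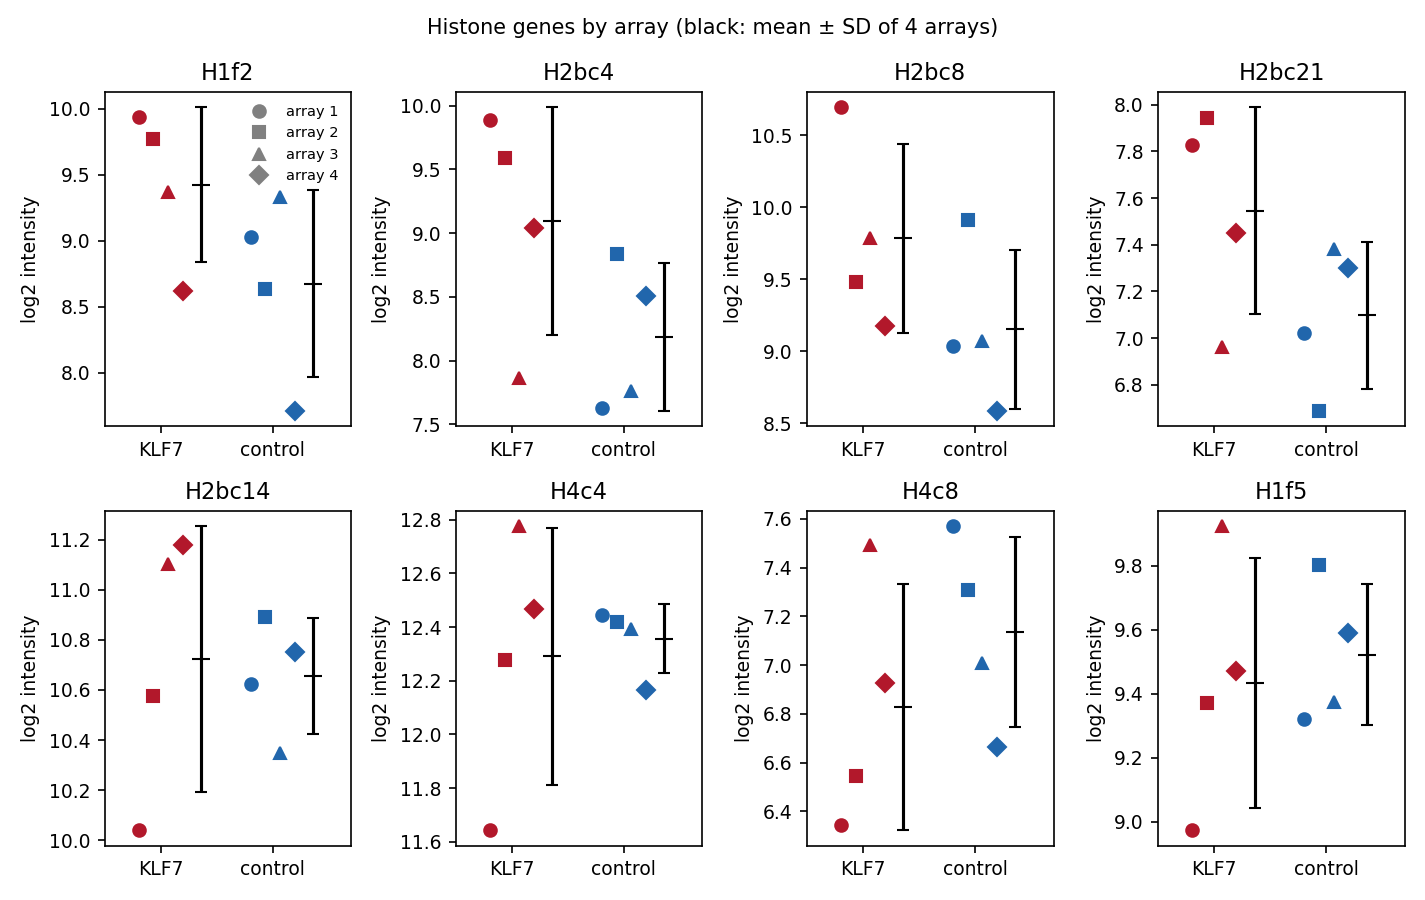
Log2 intensity (y axis) of 8 histone genes by group (x axis), with a marker shape for each array number and the mean ± SD of 4 arrays in black. In the upper row KLF7 1 and KLF7 2 lie at or near the top of the KLF7 group for H1f2, H2bc4 and H2bc21, and KLF7 1 for H2bc8, while in the lower row KLF7 1 lies lowest for all 4 genes.

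The members did not share 1 pattern over the arrays. To describe it, each gene's values were taken as deviations from its group means and set against the mean of the 25 shared probe sets over the 8 arrays. The correlation was at least 0.85 for 9 of the 30 members (4 of H4, 3 of H2B, 1 of H2A and 1 of H1), where 0.712% of all genes reached it. H4c6 (r = 0.98), H2bc14 (0.93), H4c4 (0.93), H2bc1 (0.92), H2ac15 (0.92) and H1f5 (0.90) stood at that end. Near-identical genes can bind each other's probes, so these members and the shared probe sets may read the same messages, H2bc1 included.

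At the other end, 9 members had a negative correlation, where 49.9% of all genes did. They included the 4 members with the highest differences: H2bc21 (r = -0.68), H2bc4 (-0.60), H1f2 (-0.50) and H2bc8 (-0.50). The others were H3c7, H3c4 and the germline genes H1f6, H1f7 and H1f8. KLF7 1, the lowest array of the shared probe sets, was the highest KLF7 array for H2bc4, H1f2 and H2bc8, and for H2bc21 only KLF7 2 was higher. The other KLF7 arrays did not all follow: H2bc8 was higher on KLF7 3 (9.78), where the shared probe sets were highest, than on KLF7 2 (9.48). The spread between arrays was larger in the KLF7 group than in the control group for 24 of the 30 members, against 59.9% of all genes, and KLF7 1 was the lowest KLF7 array for 14 members and the highest for 7, against 25.1% and 26.6% of all genes. These are descriptions over 8 arrays that share their normalization.

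**Figure D4:**
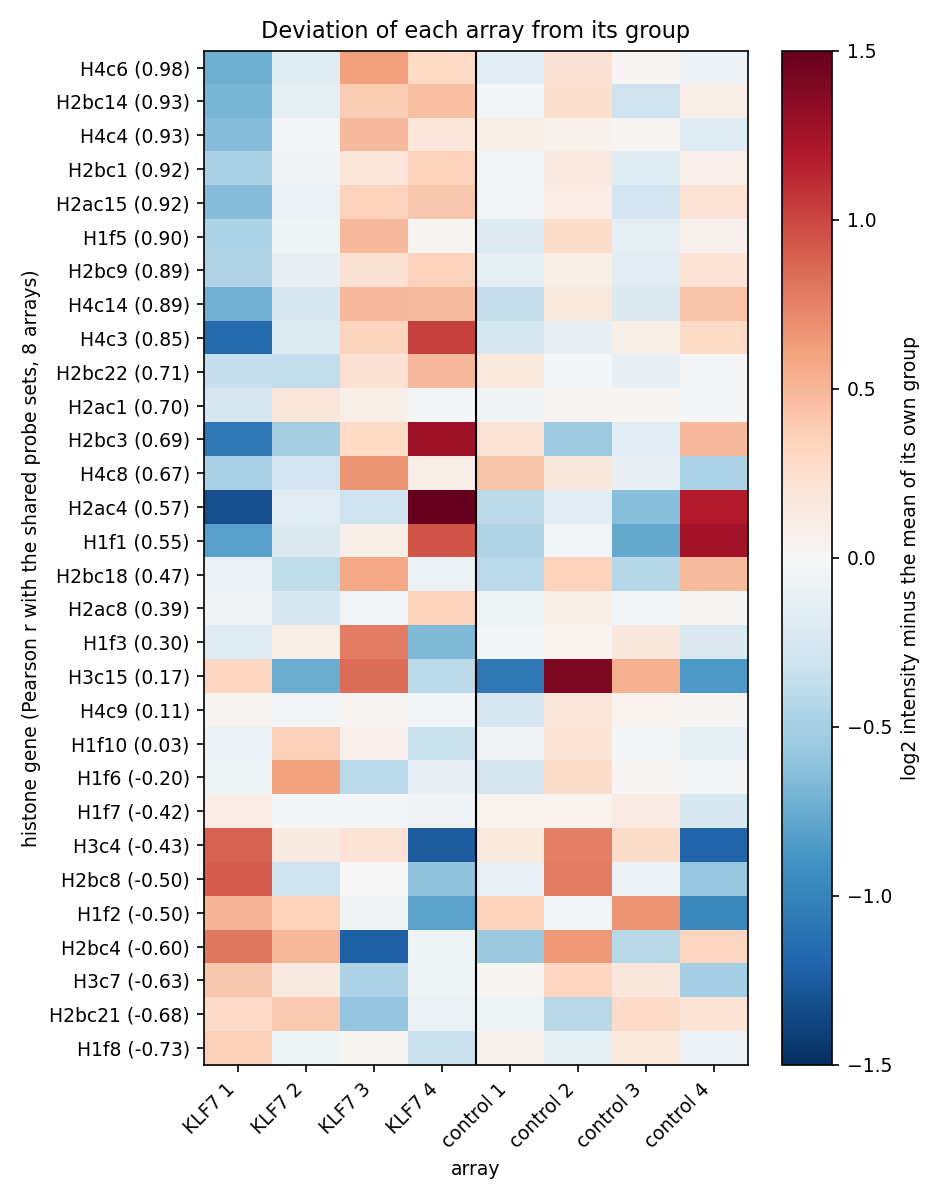
Deviation of each array's log2 intensity from the mean of its own group (colour) for the 30 histone genes (rows, ordered by their Pearson correlation with the shared probe sets over 8 arrays, given in brackets) on the 4 KLF7 and 4 control arrays (columns). The upper rows are low on KLF7 1 and high on KLF7 3, and the lower rows, with H2bc21, H2bc4, H1f2 and H2bc8, are mostly high on KLF7 1.

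Some replication-dependent genes are known to make polyadenylated messages in human differentiated cells, and of 8 such genes listed for the mouse, 4 were measured: H1f2, H2bc4, H2bc21 and H4c8. The first 3 had higher means with KLF7 and H4c8 a lower one, with a median of 0.60, against 0.12 for all 30 members. None passed the test. H2bc8 was not on that list. Over the 4 genes the mean log2 intensity was 8.50, 8.46, 7.92 and 8.01 on the KLF7 arrays, against 7.81, 7.87, 7.87 and 7.54 on the control arrays. Every KLF7 array lay above every control array, though narrowly, with KLF7 3 at 7.92 against control 3 at 7.87. The groups overlapped for each of the 4 genes. Among them KLF7 3 was the highest KLF7 array only for H4c8, the gene with the lower mean. The list was written with earlier results of these data known, so this separation is a description only. Genes listed as markers of mature myeloid cells also had mostly higher means. The sort had taken cells without lineage markers. Of 10 measured, 8 had a higher mean with KLF7, and 5 of them an unadjusted p under 0.05, where 4.65% of all genes were higher at that p. The other 2, the granule protein genes Mpo (-1.11, SE 0.75) and Elane (-1.02, SE 0.88), had lower means by over 2-fold. The summed intensity of all 10, Mpo and Elane included, lay between 8057 and 12519 on the KLF7 arrays. On the control arrays it lay between 6367 and 10467. Ly6g was dim, at 3.63 to 4.96 with KLF7 and 4.03 to 4.36 in control, and the part of mature myeloid cells in the histone differences was not tested.

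Genes that make, carry and use histones had mostly lower means with KLF7, while 22 of the 30 members had higher ones. That count of members was 17 to 24 with an array left out. The shared probe sets were not on 1 side: all 10 for H3 and 5 of 6 for H4 were lower, all 7 for H2B were higher, and the 2 for H2A were split. Of 30 measured S-phase genes, 22 had a lower mean (median -0.15), with 0 past the test and 2 at an unadjusted p under 0.05, both lower, where 3.56% of all genes were lower at that p. Cdc6, a loader of the replicative helicase, had 5.79, 6.34, 6.13 and 5.92 log2 intensity on the KLF7 arrays, against 7.14, 6.67, 6.70 and 6.50 on the control arrays. The difference was -0.71 (SE 0.18, 1.63-fold, limma adjusted p = 0.327). Every KLF7 array lay below every control array for Cdc6 and for Mcm5, as for 475 of all 19938 genes. The helicase subunit genes Mcm7 (-0.54, SE 0.21) and Mcm5 (-0.46, SE 0.21) and the helicase cofactor gene Cdc45 (-0.42, SE 0.21) followed, while Pcna, the sliding clamp, was at -0.05 (SE 0.23). The median of this list was 0.02 without control 4, -0.06 without KLF7 3, -0.31 without KLF7 4 and -0.23 without control 1.

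The order of the arrays differed between S-phase genes and histones. The mean log2 intensity of the S-phase genes was 7.46, 7.71, 7.41 and 7.97 on the KLF7 arrays, against 7.75, 7.59, 7.72 and 8.11 on the control arrays. KLF7 1 was low for both, but KLF7 3, the highest array for the shared H3 and H4 probe sets, was the lowest for the S-phase genes. Mitosis genes had 12 of 16 lower means (median -0.17): the spindle checkpoint target Cdc20 was at -0.54 (SE 0.28), the kinase gene Ttk at -0.35 (SE 0.20), the topoisomerase gene Top2a at -0.26 (SE 0.16) and Mki67, which encodes the proliferation marker Ki-67, at -0.06 (SE 0.19). Birc5, which encodes survivin, went the other way at 0.63 (SE 0.25). None of these 16 passed the test. Only Top2a had groups that did not overlap, against 5.22% of all genes in either direction. The median of the list was -0.09 without KLF7 1, -0.11 without KLF7 3 and -0.26 without KLF7 4.

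Of 21 genes for the transcription and processing of histone messages, 16 had a lower mean (median -0.13) and 0 passed. The median was -0.07 without KLF7 3 and also -0.07 without control 2. Slbp, which encodes the stem-loop binding protein, was at -0.10 (SE 0.19), with 7.52, 7.48, 7.44 and 7.68 log2 intensity on the KLF7 arrays, against 7.25, 7.78, 7.49 and 8.01 on the control arrays. The groups overlapped fully. Npat, the coactivator of histone transcription, was at -0.31 (SE 0.21), with KLF7 2 and 3 (6.56 and 6.54) below all controls (7.09 to 7.39) and KLF7 1 (7.34) among them. The cap-binding gene Ncbp1 was at -0.37 (SE 0.18), its partner Srrt at -0.32 (SE 0.17) and Nfyc, a subunit of the CCAAT-binding factor, at -0.26 (SE 0.16). Of these 21 genes, only Srrt had groups that did not overlap, against 5.22% of all genes in either direction. Mif4gd, whose product links the stem-loop binding protein to translation, was at 0.44 (SE 0.25).

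Histone chaperones and importers had 17 of 19 lower means (median -0.17), with 0 past the test. The median was -0.09 without KLF7 3 and -0.06 without control 4. Hira, a chaperone of the replication-independent H3.3, had 6.76, 6.77, 6.91 and 6.78 log2 intensity on the KLF7 arrays, against 7.14, 7.15, 6.99 and 7.09 on the control arrays. The difference was -0.29 (SE 0.14, limma adjusted p = 0.641). The groups did not overlap for Hira and for Tonsl, both lower with KLF7, as for 475 of all 19938 genes. Tonsl, a reader of newly made H4, was at -0.26 (SE 0.13), its partner Mms22l at -0.22 (SE 0.16) and the importin gene Ipo4 at -0.32 (SE 0.22).

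Replication-independent histone genes had 7 of 9 lower means (median -0.21), beside 22 of 30 members with higher means, and the difference between the lists was not tested. This median was -0.13 without KLF7 2, -0.09 without KLF7 3 and -0.06 without control 2. H2ax, which encodes the histone phosphorylated at DNA breaks, had 9.21, 10.20, 9.80 and 9.93 log2 intensity on the KLF7 arrays, against 10.25, 10.34, 10.77 and 10.04 on the control arrays, and was at -0.56 (SE 0.25, 1.48-fold, limma adjusted p = 0.593). KLF7 2 lay above control 4, and the other KLF7 arrays below all controls. Macroh2a1, which encodes a large H2A variant, was at -0.37 (SE 0.32), H2aj, an H2A variant gene, at -0.28 (SE 0.22) and Cenpa, the centromere H3, at -0.21 (SE 0.22). With an array left out, Macroh2a1 ranged from -0.59 to -0.15 and Cenpa from -0.39 to -0.09. H1f10 stands on this list as well as among the members.

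**Figure D5:**
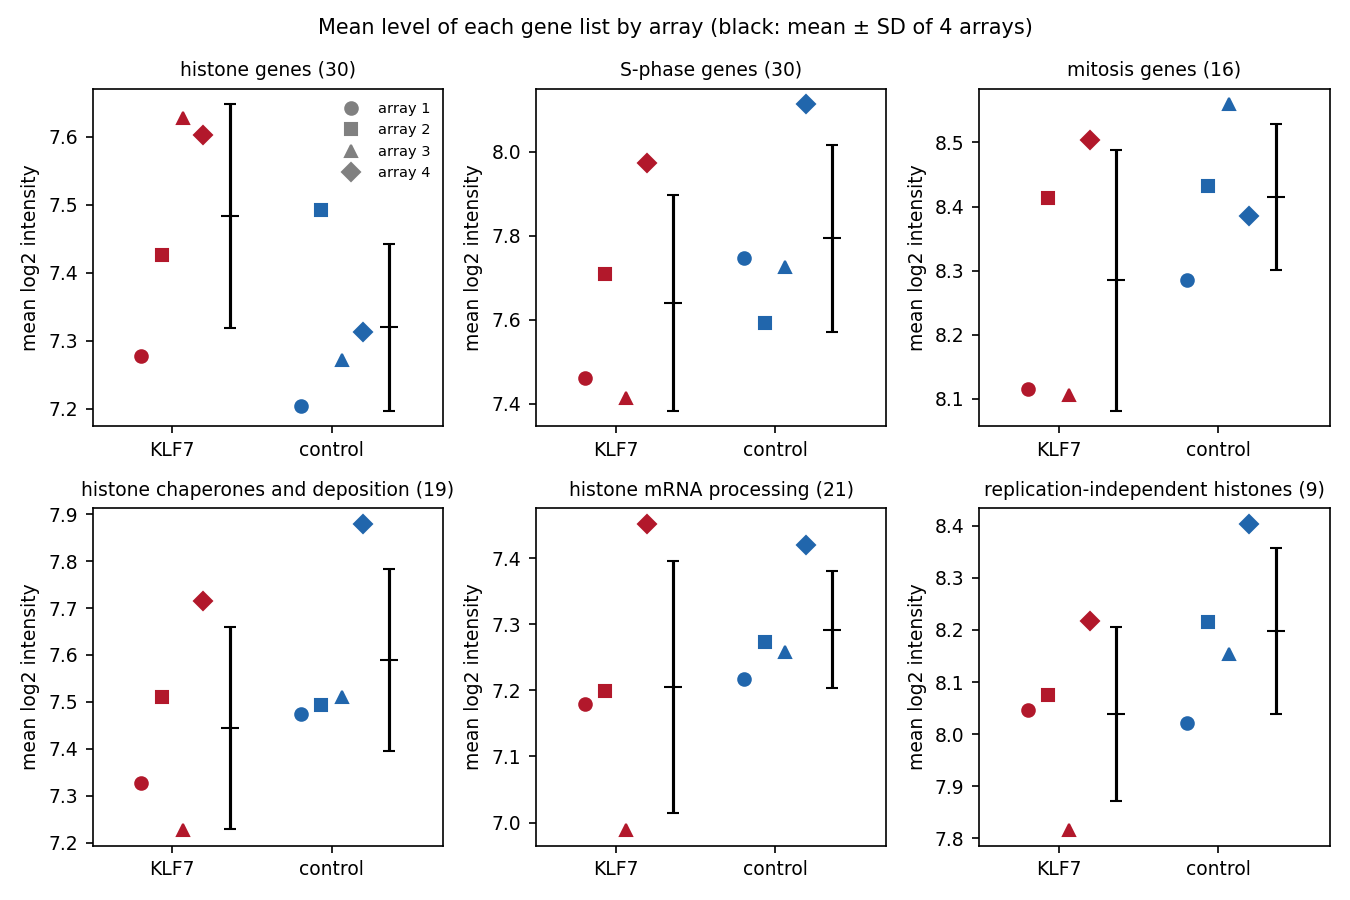
Mean log2 intensity (y axis) of the 30 histone genes and of 5 lists of related genes by group (x axis), with a marker shape for each array number and the mean ± SD of 4 arrays in black. The histone genes average 7.28 to 7.63 on the KLF7 arrays and 7.20 to 7.49 on the control arrays, while the other lists lie lower on average with KLF7, with groups that overlap.

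Outside the members, the genes whose deviations were most like the mean of the 30 over the 8 arrays were Olfr988 (r = 0.978), Tbc1d22b (0.964), Pola2 (0.964), Dyrk1b (0.957) and Rnf31 (0.950). Pola2, which encodes a subunit of the polymerase that primes DNA synthesis, differed by -0.40 and the others by between -0.10 and 0.17, none past the test. With 19938 genes and 8 arrays, correlations of this size are a description only.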

How the data were processed

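RNA was measured on 8 one-colour arrays, 4 per group. Per the labels, the authors made the deposited intensities with RMA in Affymetrix Expression Console; they are linear values from 2.20 to 15393, and no build is named. Log2 was taken. Of 35554 probe sets, 21789 carried 1 gene symbol, 1621 several and 12144 none, and the probe set with the highest mean stood for each of 19938 genes. Groups were compared in limma 3.58.1 (R 4.3.3) with an intensity trend, and p-values were adjusted by Benjamini-Hochberg over all genes (threshold 0.05). On simulated data for this comparison (19938 genes), the fit recovered 67% of 100 genes changed 2-fold and 96% of 100 changed 4-fold. The simulated noise was independent between genes and arrays, without the differences between whole arrays seen here, so these rates need not hold for the real arrays. Array medians lay between 46.2 and 54.1, and correlations between arrays between 0.936 and 0.982.

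The members and lists were chosen with earlier results of these data known. Genes were named by level and unadjusted p within each class and list, and the members not reached by that rule were added to account for all 30. Alternatives covered scaling, filtering, array weights, a batch term, a replicate block and leaving out arrays.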

Additional observations from a re-analysis of the deposited data

Results flagged for a closer look

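The mean log2 intensity of the 19 histone chaperone and deposition genes was 7.88 on control 4, against 7.48 to 7.51 on the other control arrays. This array stood apart from its group: the gap to the next array was 0.910 of the group's range, above Dixon's critical value for 4 samples. Of 94 sets of 4 arrays examined this was the one flag, and chance gives about 1 in 20.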

How the results depend on the processing

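Of the recomputed values, 1459 kept their direction and side of the threshold, 71 changed sign and 6 moved. No histone gene passed the test in any setting. The count of all genes past the test was 0, 26 with a batch term for both arrays numbered 4, 90 with the replicate number as a block, and 0 to 1 with an array left out. The labels do not say that the numbers pair the arrays, so the block was kept as an alternative. Same-numbered arrays had deviation correlations of 0.350, -0.126, 0.362 and 0.699, and differently numbered ones of -0.558 to 0.319. For numbers 1, 3 and 4 the same-numbered array of the other group correlated highest, so these values do not settle whether the arrays are paired. With the block, 2 members had an unadjusted p under 0.05 (H1f2 and H2bc4), and 0 passed after adjustment. The share of all genes at that unadjusted p with the block is not given here. Leaving out the H4 probe set with 2 symbols was chosen after seeing the data. The median of the members was 0.030 to 0.26 and that of H1 -0.035 to 0.15 with an array left out.

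With array weights, H1f10 was at 0.054, H2ac1 at 0.037, H4c6 at -0.029, Pcna at 0.023 and Tbc1d22b at -0.048. Cyclic loess gave 0.0029 for H2ac1 and -0.025 for H4c14. Quantile normalization gave -0.018 for H1f1, -0.041 for H4c6, -0.18 for H4c14 and -0.11 for H2bc14. Averaged probe sets gave 0.059 for Slbp. Without both arrays numbered 2, H1f5 was at 0.026, Mki67 at 0.070 and Olfr988 at 0.056. Without both numbered 4, H1f8 was at 0.0074, H1f10 at 0.014, H2ac4 at -0.0076, H2bc3 at -0.15, H2bc14 at -0.049, H4c6 at -0.11, H4c14 at -0.011, Pcna at 0.037 and Tbc1d22b at -0.12. The cause was not tested.

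With an array left out, signs turned within these ranges: H1f1 -0.30 to 0.43, H1f5 -0.25 to 0.065, H1f7 -0.11 to 0.0085, H1f8 -0.20 to 0.036, H1f10 -0.18 to 0.058, H2ac1 -0.079 to 0.067, H2ac4 -0.41 to 0.63, H2bc3 -0.31 to 0.47, H2bc14 -0.082 to 0.30, H2bc18 -0.12 to 0.23, H3c4 -0.17 to 0.64, H3c7 -0.28 to 0.041, H4c3 -0.035 to 0.70, H4c4 -0.23 to 0.15, H4c6 -0.18 to 0.26, H4c9 -0.053 to 0.089 and H4c14 -0.16 to 0.25. Among the other genes, Mki67 ranged from -0.17 to 0.013, Olfr988 from -0.17 to 0.023, Pcna from -0.19 to 0.10, Slbp from -0.22 to 0.027 and Tbc1d22b from -0.070 to 0.20. Shared probe sets were otherwise recomputed only with arrays left out. Dim probe sets such as that of H3c7 limit what their genes can show.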
